A study of Mus musculus with 7 samples.

Results

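Hnf4a and Pou5f1 are the genes of the 2 factors used to convert fibroblasts into iHepSCs, induced hepatic stem cells, and their own RNA was read here on every array. All probe sets annotated to either gene were taken, 4 for Hnf4a (1427001_s_at, 1427000_at, 1421983_s_at and 1450447_at) and 1 for Pou5f1 (1417945_at), or 5 of the 45101 probe sets deposited. A probe set is a group of short array probes whose signals were combined into 1 value. The arrays were Affymetrix Mouse430_2, and the values were log2 levels after Robust Multiarray Analysis (RMA), so that a difference of 1 is a 2-fold difference.

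RNA came from C57BL/6J mouse cells (given as C57BL/6 in the strain label) of 3 kinds. MEF (4 arrays) were embryonic fibroblasts from mid-gestation embryos without head and internal organs, kept in fibroblast medium and not transduced. iHepSCs (2 arrays, 1 at passage 3, P3, and 1 at passage 20, P20) were MEFs that received Hnf4a and Oct4 (the protein of Pou5f1) cDNAs by lentivirus from a constitutive viral promoter, were moved to a hepatocyte medium with HGF and EGF, and were picked and grown as clones. pHep (1 array) were primary hepatocytes that collagenase perfusion released from the liver of 6-week-old mice. Each passage was measured on 1 array. The labels name no clone for either iHepSC array, and the study took 1 clone, iHepSC-C3, for its detailed characterization, so both arrays may come from that clone. The MEF arrays are numbered but not said to be separate cultures, so the p-values measure no more than how far these samples scatter, and that scatter may be technical.

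Hnf4a is a nuclear receptor that binds DNA as a homodimer and holds many liver genes active, among them those of apolipoproteins, clotting factors and bile acid enzymes. Its gene has a distal and a proximal promoter, and the transcripts differ at their first exons. Oct4, encoded by Pou5f1, is a POU domain factor that acts with Sox2 and Nanog in embryonic stem cells and is silent in most somatic cells. The cDNAs carried by the virus have no native promoter, and the array value is a sum over whatever RNA a probe set matches. The probe sequences were not used here, so whether each probe set reads viral RNA, native RNA or both was not tested. By quantitative PCR specific to the viral transcripts, the study reports both transgenes silenced in iHepSCs at early and late passage. It saw no Oct4-positive iHepSCs by immunostaining.

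The RefSeq windows before the start sites are shown because the genes that act on them are measured below. Hnf4a lies on the plus strand at chr2:163506811-163572907 and Pou5f1 on the plus strand at chr17:35506032-35510777 (GRCm38.p6). The first Hnf4a window holds the 204 bases before the gene (chr2:163506607-163506810), and the second the 250 bases before a start inside it (chr2:163546905-163547154), whose left end is 40298 bases further on. The Pou5f1 window holds the 250 bases before the gene (chr17:35505782-35506031). Letters in capitals are matches, on either strand, to 6 motifs: GTTAAT (an HNF1 site arm), CAAAGTCCA (an HNF4 site), AGGTCA (a nuclear receptor site arm), TCAAGG (a core read by Nr5a2 and Nr6a1), ATGCAAAT (the POU octamer) and GGGCGG (a GC box).
Hnf4a first window: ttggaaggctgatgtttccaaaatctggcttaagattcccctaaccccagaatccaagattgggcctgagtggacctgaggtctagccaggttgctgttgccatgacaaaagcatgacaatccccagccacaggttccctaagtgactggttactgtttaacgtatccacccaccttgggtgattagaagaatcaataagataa
Hnf4a second window: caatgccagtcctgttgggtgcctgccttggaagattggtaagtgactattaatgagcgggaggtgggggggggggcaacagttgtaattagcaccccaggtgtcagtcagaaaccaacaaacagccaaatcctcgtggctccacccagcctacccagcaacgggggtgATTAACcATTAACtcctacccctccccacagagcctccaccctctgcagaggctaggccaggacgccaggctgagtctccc
Pou5f1 window: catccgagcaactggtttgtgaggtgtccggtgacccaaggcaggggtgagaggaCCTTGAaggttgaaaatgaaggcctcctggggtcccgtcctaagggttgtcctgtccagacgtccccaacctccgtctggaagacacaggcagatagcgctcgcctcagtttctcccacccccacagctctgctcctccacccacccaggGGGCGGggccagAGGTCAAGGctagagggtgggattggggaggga

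No motif of the 6 matched in the first Hnf4a window. The second held GTTAAT 2 times on the minus strand, read there as ATTAAC, and 6.43% of 32851 RefSeq windows cut to the same length hold it at least 1 time. The Pou5f1 window held AGGTCA 1 time, TCAAGG 2 times and GGGCGG 1 time, and the shares of windows that hold them were 14.0%, 12.5% and 32.7%. AGGTCA and 1 of the TCAAGG matches overlap in AGGTCAAGG, and the other TCAAGG match lies on the minus strand as CCTTGA. A second Pou5f1 window, before a start inside the gene, held none of the 6. These matches are letters in a window and say nothing of what was bound.

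The cell types were checked by markers before the members were read, each gene by its brightest probe set. Against MEF, 7 of 8 hepatocyte markers were higher in iHepSCs and all 8 in pHep, and all 6 fibroblast markers were lower in both. Among all 18193 genes, 18.2% were higher and 13.4% lower in iHepSCs, and 14.8% and 15.5% in pHep. The median fibroblast marker level was 12.44 to 13.53 on MEF, 5.82 and 5.72 on the iHepSC arrays and 9.18 on pHep. Of 3 bile duct markers, Krt7 and Krt19 were higher in iHepSCs, by 6.15 and 5.16, and Sox9 was lower by 1.25. In pHep, Krt7 and Sox9 were higher, by 3.85 and 3.43. None of 3 dividing cell markers was higher or lower past the test in either, with median differences of -1.04 in iHepSCs and -2.15 in pHep. Their median level was 8.86 on MEF replicate 1 and 11.51 to 11.63 on the other MEF arrays. It was 10.16 and 9.22 on the iHepSC arrays and 8.75 on pHep. With MEF arrays this far apart, the lack of calls does not show equal levels. On pHep, 5 of 7 macrophage and Kupffer cell markers were also higher than in MEF, led by Vsig4, a receptor of liver macrophages, at 6.26, whereas none was higher in iHepSCs. The median level of these 7 markers was 10.59 on pHep, 6.24 and 6.35 on the iHepSC arrays and 6.61 to 7.50 on the MEF arrays, and Clec4f, which marks Kupffer cells, was at 6.08 on pHep and 6.46 to 6.75 on MEF. None of 4 pluripotent cell markers was higher in either. The 0 higher by limma, of the macrophage list in iHepSCs and of the pluripotent list in both, stayed 0 at an unadjusted p under 0.05. In bulk RNA, fewer cells of a type and less RNA per cell cannot be told apart. MEF replicate 1 stood apart, with a correlation of 0.960 to 0.961 to the other MEF arrays, against 0.997 between replicate 2 and replicates 3 and 4. Values without it are given for some of the results that changed, not for all.

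Hnf4a RNA was higher in iHepSCs than in MEF by 3 of its 4 probe sets, and higher in pHep than in MEF by all 4 (limma over all 7 arrays, adjusted p under 0.05 over 45037 probe sets). The background is high in these comparisons: 22.7% of all probe sets passed the test in iHepSCs against MEF, 27.7% in pHep against MEF and 15.6% in iHepSCs against pHep. The size of the difference depended on the probe set, from 6.88 to 0.13 on the log2 scale for iHepSCs against MEF. Pou5f1 did not differ past the test in any of the 3 comparisons.

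The brightest Hnf4a probe set, 1427001_s_at, read 7.39, 7.51, 7.42 and 7.51 on MEF replicates 1 to 4, 12.07 at P3, 11.88 at P20 and 13.42 on pHep. Neither iHepSC array nor pHep came near the MEF arrays, which lay within 0.12 of each other. The iHepSC mean was 4.52 ± 0.10 (SE) above MEF, with a 95% interval of 4.28 to 4.76, or 22.9-fold (adjusted p = 2.6e-06). How much of the MEF level is background is not known, so this is a fold of RMA values.

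The widest range belonged to 1427000_at, at 3.01, 3.11, 3.35 and 3.43 on the MEF arrays, 10.13 at P3, 10.08 at P20 and 11.72 on pHep. On MEF replicates 1 and 2 this was the lowest value of all 45037 probe sets, and on replicates 3 and 4 it ranked 52 and 173 from the bottom. The iHepSC mean was 6.88 ± 0.14 (SE) above MEF on the log2 scale (interval 6.53 to 7.23, adjusted p = 2.34e-06). With the MEF values at the floor of the scale, the size of this difference is that of the RMA values and is not a measured fold of RNA.

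The probe set 1421983_s_at read 5.14, 6.00, 5.95 and 5.93 on the MEF arrays, 8.02 at P3, 7.90 at P20 and 9.68 on pHep. MEF replicate 1 was lower than the other MEF arrays, and every iHepSC and pHep value was above every MEF value. The iHepSC mean was 2.20 ± 0.26 (SE) above MEF, or 4.61-fold in RMA values (adjusted p = 0.00209). Without MEF replicate 1 the difference was 2.00.

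The remaining probe set, 1450447_at, read 6.38, 6.57, 6.39 and 6.65 on the MEF arrays, 6.61 at P3, 6.64 at P20 and 7.23 on pHep. Both iHepSC values lay inside the MEF range, and pHep lay above it. The iHepSC mean differed from MEF by 0.13 ± 0.11 (SE), with an interval of -0.14 to 0.41 (adjusted p = 0.473), so a rise of the size read by the other probe sets lies outside this interval. With arrays centred on Gapdh, which moved the median of all probe sets by 0.49, the difference was 0.62 and did not pass either (adjusted p = 0.0642).

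**Figure D1:**
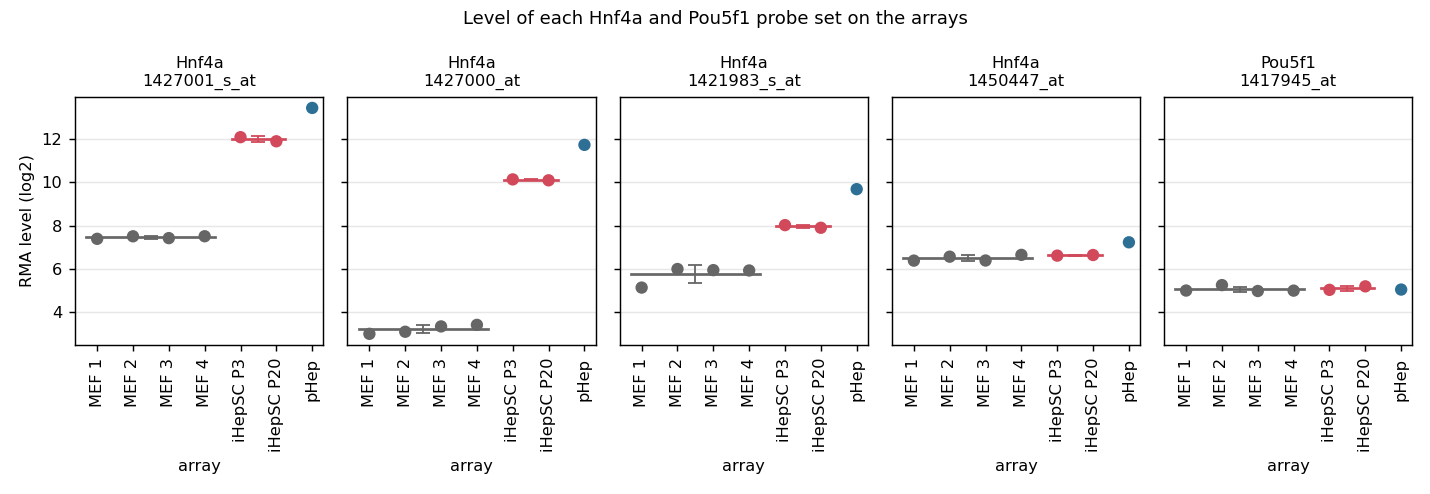
RMA level on the log2 scale (vertical) of each Hnf4a and Pou5f1 probe set on each array (horizontal), with points for the 4 MEF, the P3 and P20 iHepSC and the pHep array, lines for the MEF and iHepSC means and bars for their SD. For 3 Hnf4a probe sets the iHepSC and pHep points lie above all MEF points, for 1450447_at the iHepSC points lie among the MEF points at 6.38 to 6.65, and the Pou5f1 points stay between 4.99 and 5.26.

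In pHep, which carried no transgene, the same probe sets were read against MEF. The difference was 8.49 for 1427000_at (adjusted p = 6.65e-06), 5.96 for 1427001_s_at (adjusted p = 6.35e-06) and 3.92 for 1421983_s_at (adjusted p = 0.000582). It was smaller for 1450447_at, at 0.73 with an interval of 0.37 to 1.09 (adjusted p = 0.0143). The call for 1450447_at was lost when arrays were centred on Gapdh (0.76, adjusted p = 0.104) and when MEF replicates 2 to 4 counted as 1 sample (0.77, adjusted p = 0.0595). The single pHep array was assumed to vary like the other groups. It also held the macrophage markers and the fibroblast marker level given above, and their part in these values was not tested.

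The order of the levels was therefore pHep, iHepSC and MEF for the 3 responding probe sets. iHepSCs were below pHep by 1.44 for 1427001_s_at (interval -1.78 to -1.10, adjusted p = 0.00133), or 2.72-fold, and the difference was -1.61 for 1427000_at (adjusted p = 0.00375). It was -1.72 for 1421983_s_at (adjusted p = 0.0284), and this call was lost without MEF replicate 2, 3 or 4 or either iHepSC array (adjusted p 0.0546 to 0.126). For 1450447_at the difference was -0.60, with an interval of -0.99 to -0.21 (adjusted p = 0.0567), and it passed without MEF replicate 1 (adjusted p = 0.0121). With arrays centred on Gapdh, the difference in 1427001_s_at was -0.98 and no longer passed (adjusted p = 0.0684).

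**Figure D2:**
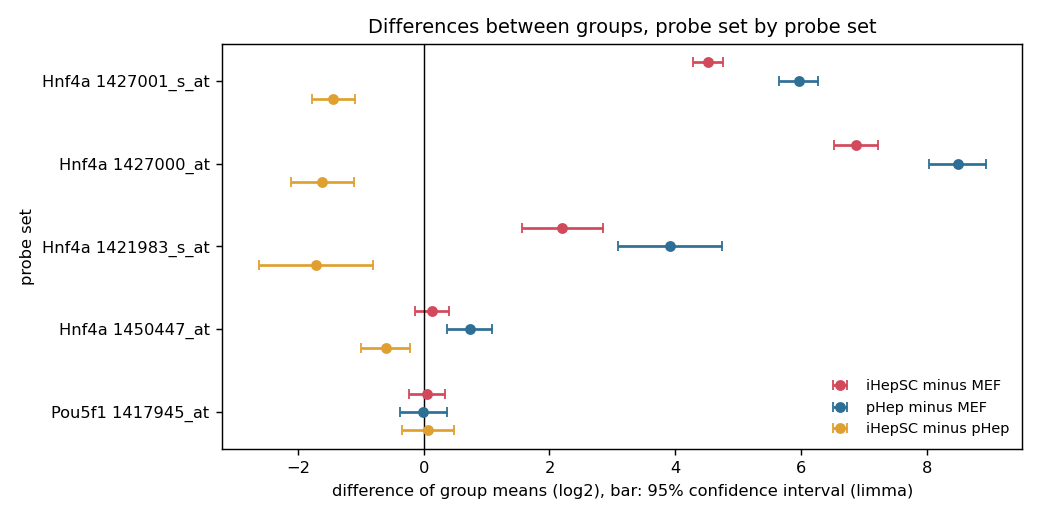
Difference of group means on the log2 scale (horizontal) for each probe set (vertical), with points for the limma estimate of iHepSC minus MEF, pHep minus MEF and iHepSC minus pHep and bars for the 95% confidence interval. The Hnf4a differences from MEF run from 8.49 down to 0.13, and every Pou5f1 interval includes 0.

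Whether the probe sets of Hnf4a differed from each other was tested on the level of 1427001_s_at minus that of each other probe set, in a fit over 16752 such pairs from all genes with more than 1 probe set. The rise in iHepSCs was larger by 4.39 in 1427001_s_at than in 1450447_at (interval 4.04 to 4.74, adjusted p = 3.71e-05), larger by 2.32 than in 1421983_s_at (adjusted p = 0.00193), and differed by -2.36 from that in 1427000_at, which rose more (adjusted p = 0.000402). The gap to 1427000_at rests on MEF values at the floor of the scale. All 3 pairs passed, where 16.6% of all pairs did. The median size over all pairs was 0.42, and 0.549%, 3.78% and 3.59% of pairs were at least as far apart as these 3.

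In pHep against MEF the same pairs differed in the same directions. The gaps were 5.23 against 1450447_at (adjusted p = 0.000115), 2.04 against 1421983_s_at (adjusted p = 0.00968) and -2.53 against 1427000_at (adjusted p = 0.00117), the last again on MEF values at the floor, where 17.8% of pairs passed. The MEF arrays are shared by both comparisons. Between iHepSCs and pHep the gaps use no MEF value, and were 0.28, 0.17 and -0.84 against 1421983_s_at, 1427000_at and 1450447_at. Their adjusted p (0.789, 0.813 and 0.0632) rest on a spread estimated in part from the MEF arrays, and 7.19% of pairs passed.

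In the annotation, 1427001_s_at and 1427000_at carry 1 source sequence, and 1421983_s_at and 1450447_at carry another. The split between high and low responders thus followed the source sequence in part, since the first pair read 4.52 and 6.88 and the second 2.20 and 0.13. The suffix _s_at marks a probe set whose probes match more than 1 transcript. Hnf4aos, an antisense gene on the same stretch of chromosome (chr2:163493804-163541721), overlaps Hnf4a, and its probe set 1425246_at read 6.41 to 6.64 on MEF, 6.49 and 6.47 on the iHepSC arrays and 6.41 on pHep, with adjusted p = 0.992 for iHepSCs against MEF.

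Pou5f1 1417945_at read 5.007, 5.257, 4.986 and 5.003 on MEF replicates 1 to 4, 5.039 at P3, 5.199 at P20 and 5.053 on pHep. All 7 values lay within 0.27, and the iHepSC and pHep values lay inside the MEF range. iHepSCs differed from MEF by 0.06 ± 0.12 (SE), with an interval of -0.23 to 0.35 (adjusted p = 0.782). With Gapdh centring the difference was 0.55 (adjusted p = 0.101), above this interval, beside a shift of 0.49 in the median of all probe sets. pHep differed from MEF by -0.01 (interval -0.38 to 0.36, adjusted p = 0.966) and iHepSCs from pHep by 0.07 (interval -0.34 to 0.48, adjusted p = 0.849), or by 0.53 with Gapdh centring, again not past the test.

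No detection calls were used, so the Pou5f1 level was set beside 44 probe sets for olfactory receptors, which are made in the nose. Probe sets differ in how brightly they read, so this is a description and gives no order. Their median was 4.71 to 4.97 and their 95th percentile 5.92 to 6.14 over the arrays, and Pou5f1 lay below that percentile on all 7, with 13 to 21 of the 44 above it. On MEF the same held for 1427000_at, which lay below 43 or all of the 44. With 36 vomeronasal receptor probe sets as the reference, 7 or 8 lay above Pou5f1.

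Between P20 and P3, each on 1 array, Hnf4a differed by -0.19 in 1427001_s_at, -0.04 in 1427000_at, -0.12 in 1421983_s_at and 0.03 in 1450447_at. The difference in 1427001_s_at exceeded the 0.12 that separated its MEF arrays, and the others were under the largest gaps between MEF arrays, 0.41, 0.85 and 0.26. Pou5f1 differed by 0.16, against up to 0.27 between MEF arrays. Over all probe sets the median size of the P20 minus P3 difference was 0.12. There is no test with 1 array for each passage, and centring on Gapdh, which read 13.97 at P3 and 13.67 at P20, turned all 3 negative differences to positive ones, 0.11, 0.26 and 0.18 in the order above.

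Genes that regulate Hnf4a or work with it were read next, from a list of 25 of which 23 were read, each by its brightest probe set. In iHepSCs 12 were higher and 2 lower than MEF, with a median difference of 1.26, and in pHep 14 were higher and 1 lower, with a median of 2.83. Among all 18193 genes, 18.2% were higher and 13.4% lower in iHepSCs, 14.8% and 15.5% in pHep, and the medians were 0.01 and -0.13. Of the list, 10 genes were higher in both. Both comparisons use the same MEF arrays, and the share of all genes higher in both was not counted. Without MEF replicate 1 the lower genes in pHep were 2.

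Foxa2, a pioneer factor of endoderm, read 5.54 to 6.51 on MEF, 12.21 and 12.22 on the iHepSC arrays and 11.32 on pHep. It rose by 6.24 in iHepSCs (adjusted p = 3.14e-05), and its iHepSC and pHep levels did not differ past the test (0.90, adjusted p = 0.229). Onecut2, a cut homeodomain factor of the developing liver, read 4.83 to 5.05 on MEF, 9.49 and 9.54 on the iHepSC arrays and 11.77 on pHep. It rose by 4.57 in iHepSCs (adjusted p = 1.89e-06) and by 6.82 in pHep (adjusted p = 4.32e-06). Hhex, a homeobox gene of the early liver bud, read 5.76 to 6.39, then 9.33 and 8.98, then 13.65, a rise of 3.09 (adjusted p = 0.000131) and 7.59 (adjusted p = 1.54e-05).

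The 2 genes that fell in iHepSCs, Nr2f1 and Nr2f2, encode COUP-TF receptors, which compete for sites of Hnf4a. In pHep, Nr2f2 differed from MEF by only 0.0044. Nr2f6, also on the list and named after its values were seen, did not fall. It differed by 0.95 in iHepSCs, not past the test (adjusted p = 0.177), and by 1.81 in pHep. Nr2f1 read 9.62 on MEF replicate 1 and 8.59 to 8.72 on the others, 6.86 on both iHepSC arrays and 4.64 on pHep, and fell by 2.04 in iHepSCs (adjusted p = 0.00353) and fell by 4.26 in pHep (adjusted p = 0.000646). Nr2f2 fell by 0.60 in iHepSCs (adjusted p = 0.03), and that call was lost without MEF replicate 3 or 4 or either iHepSC array (adjusted p 0.0526 to 0.181) and with Gapdh centring. Hnf4g, the paralog of Hnf4a, read 4.08 to 4.32 on MEF, 4.39 and 4.48 on the iHepSC arrays and 4.06 on pHep, with no difference past the test (0.22, adjusted p = 0.193 in iHepSCs). Its probe sets disagreed, since 1 of 3 was higher in iHepSCs, by 1.19, and the mean of all 3 was higher by 0.52 (adjusted p = 0.00386). The genes of the HNF1 factors were not analysed here.

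Of the known targets of Hnf4a, 30 were read from a list of 33. Of these, 18 were higher and 0 lower in iHepSCs, with a median of 1.11, and 28 were higher and 0 lower in pHep, with a median of 4.98. The higher genes are 60.0% and 93.3% of those read, beside 18.2% and 14.8% of all genes. Alb, Apoa1, Apob, Ttr, Tat and Cps1 are also hepatocyte markers used above, so those lists overlap. The 0 lower by limma were 0 also at an unadjusted p under 0.05, and in iHepSCs by the t-test of the methods after adjustment. Apob, which forms the protein shell of low density lipoprotein, read 4.82 to 5.70 on MEF, 14.06 and 14.02 on the iHepSC arrays and 14.48 on pHep, a rise of 8.86 in iHepSCs (adjusted p = 4.9e-06) and of 9.30 in pHep (adjusted p = 1.83e-05). Alb, serum albumin, read 5.35 to 5.89, then 13.74 and 14.39, then 15.13, a rise of 8.47 (adjusted p = 2.89e-06) and 9.54 (adjusted p = 9e-06).

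The 30 targets fell into groups by comparison. All 18 genes higher in iHepSCs were also higher in pHep. The MEF arrays are shared by both comparisons, and the share of all genes higher in both was not counted. Between iHepSCs and pHep, where 9.26% of all genes were higher and 7.89% lower in iHepSCs, 10 of the 18 were lower in iHepSCs than in pHep, 2 were higher (Apoa4 by 3.73 and Cyp27a1 by 1.69) and 6 did not differ past the test. The other 10 genes higher in pHep were Apoa2, Apom, F7, F9, F10, F12, Pck1, Tat, Cyp7a1 and Slc10a1. In iHepSCs their differences were -0.16 to 0.28 from MEF and -7.57 to -1.07 from pHep. The 10 were picked on these arrays as past the test in pHep and not in iHepSCs. Their gap to pHep follows largely from that choice and is no further test. They encode apolipoproteins, clotting factors, enzymes of glucose, tyrosine and bile acid metabolism and a bile acid carrier. These genes were grouped after their values were seen. Apart from Alb and Apob the genes in this paragraph are named for that reason.

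**Figure D3:**
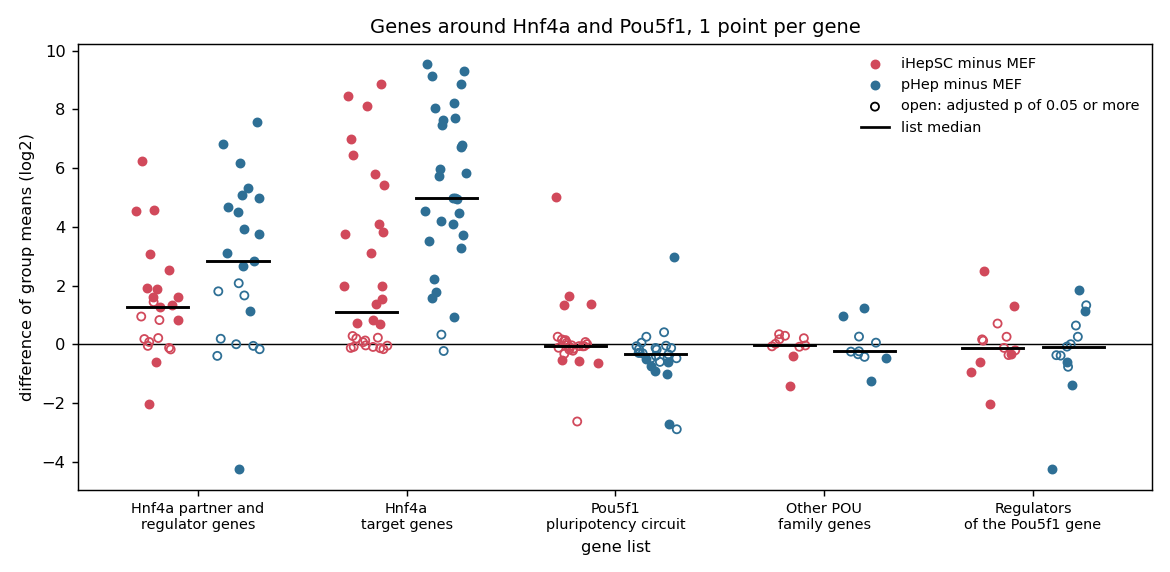
Difference of group means on the log2 scale (vertical) for each gene of 5 lists (horizontal), iHepSC minus MEF beside pHep minus MEF. Filled points have an adjusted p under 0.05 over all genes and black bars are list medians. The medians of the Hnf4a target genes were 1.11 and 4.98, and those of the Pou5f1 pluripotency circuit -0.05 and -0.32.

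The pluripotency circuit around Pou5f1 gave other counts. Of 26 genes read from a list of 28, 4 were higher and 3 lower in iHepSCs (median -0.05), and 1 was higher and 6 lower in pHep (median -0.32), or 15.4% and 11.5% of those read in iHepSCs, beside 18.2% and 13.4% of all genes, and 3.85% and 23.1% in pHep, beside 14.8% and 15.5%. Without MEF replicate 1 the counts of lower genes were 6 and 10 and 2 were higher in pHep, without the P3 array 1 was lower in iHepSCs, and with Gapdh centring 0 and 1 were lower. Sox2, the DNA-binding partner of Oct4, read 8.14 on MEF replicate 1, 5.30 to 5.70 on the other MEF arrays, 3.54 and 3.52 on the iHepSC arrays and 3.26 on pHep. Its difference in iHepSCs was -2.63 (adjusted p = 0.0542), and without MEF replicate 1 it was -1.96 and passed (adjusted p = 1.2e-05). In pHep it was -2.89 (adjusted p = 0.0861), and -2.23 without that array (adjusted p = 2.6e-05). Nanog read 4.35 to 4.56 on MEF, 4.00 and 3.89 on the iHepSC arrays and 3.87 on pHep, and fell by 0.53 in iHepSCs (adjusted p = 0.0108), a call lost without either iHepSC array (adjusted p = 0.0514 and 0.0945) and with Gapdh centring (-0.04). In pHep it fell by 0.60 (adjusted p = 0.0192), and without MEF replicate 2 the adjusted p was 0.0501. On every array Nanog read below the median of the olfactory receptor probe sets, 4.71 to 4.97. These are differences between low readings, and whether any of them is above background is not known.

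Of the genes that rose, Tfcp2l1, a factor of naive stem cells and also of kidney and gland epithelia, read 5.79 to 6.99 on MEF, 11.34 and 11.60 on the iHepSC arrays and 9.43 on pHep, a rise of 5.02 in iHepSCs (adjusted p = 0.000135) and 2.98 in pHep (adjusted p = 0.00462), in 1 of its 3 probe sets, the others not past the test. Fbxo15, an F-box gene used as a reporter of pluripotency, read 4.00 to 4.23, then 5.43 and 6.07, then 3.83, a rise of 1.64 in iHepSCs (adjusted p = 0.00117). Klf4, a factor of stem cells and of epithelia, rose by 1.34 in iHepSCs (adjusted p = 0.000214) and fell by 1.01 in pHep (adjusted p = 0.00272), the latter not past the test with Gapdh centring. The fourth gene higher in iHepSCs was Lefty1, an inhibitor of Nodal signalling, at 1.36, named after its value was seen. Klf2 fell by 0.62 in iHepSCs (adjusted p = 0.011) and fell by 2.70 in pHep (adjusted p = 9.4e-05), and Trim71 fell by 0.57 in iHepSCs and fell by 0.74 in pHep (adjusted p = 0.005 and 0.00617). The iHepSC calls of both were lost with Gapdh centring, and that of Klf2 without the P3 array (adjusted p = 0.095).

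Of the other POU family genes, 10 of 14 were read. None was higher in iHepSCs and 2 were lower, against 3 and 0 with Gapdh centring, and in pHep 2 were higher and 2 lower, against 1 and 0. Each count of 2 is 20.0% of the 10 read, beside 13.4% of all genes lower in iHepSCs and 14.8% higher and 15.5% lower in pHep. Without MEF replicate 1, 2 were higher in iHepSCs, and without any other single array 1 was lower in iHepSCs and 1 was higher and 1 lower in pHep. Beside the 0 in limma, 1 was higher at an unadjusted p under 0.05 and 1 by the t-test of the methods after adjustment. Pou3f3, a neural POU gene, read 5.64 to 6.36 on MEF, 4.69 and 4.58 on the iHepSC arrays and 4.80 on pHep, and fell by 1.42 in iHepSCs (adjusted p = 0.00292) and fell by 1.25 in pHep (adjusted p = 0.0155), in 1 of its 2 probe sets in both, and neither call held with Gapdh centring. Pou3f4 fell by 0.40 in iHepSCs (adjusted p = 0.0238), and that call was lost without any single array but MEF replicate 1 (adjusted p 0.0562 to 0.171) and its sign turned with Gapdh centring (0.09). Pou6f1 differed by 0.21 in iHepSCs (adjusted p = 0.614), and by 0.40 without MEF replicate 1 (adjusted p = 0.034). In pHep, Pou5f2 rose by 0.96 (adjusted p = 0.0152), Pou6f1 by 1.25 (adjusted p = 0.0398) and Pou2f3 fell by 0.48 (adjusted p = 0.0342). The pHep calls of Pou6f1 and Pou2f3 were lost without any single array but MEF replicate 1.

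All 13 genes listed as regulators of the Pou5f1 gene were read, and 2 were higher and 4 lower in iHepSCs, 2 and 3 in pHep. These are 15.4% and 30.8% of the 13 in iHepSCs, beside 18.2% and 13.4% of all genes, and 15.4% and 23.1% in pHep, beside 14.8% and 15.5%. Without MEF replicate 1, 4 were higher in both, and 5 were lower in pHep, while without MEF replicate 3 or 4 or either iHepSC array 1 was higher in both and 2 were lower in iHepSCs. Without MEF replicate 2, 1 was higher in iHepSCs, and with Gapdh centring 1 was lower in iHepSCs and 1 higher in pHep. Nr6a1, a receptor that binds the AGGTCAAGG stretch printed above and lowers Pou5f1 in differentiating stem cells, read 6.65, 5.49, 5.58 and 5.87 on MEF, 7.09 and 7.28 on the iHepSC arrays and 7.74 on pHep. It rose by 1.29 in iHepSCs (adjusted p = 0.0292) and 1.84 in pHep (adjusted p = 0.0227). Of its 5 probe sets, 2 were higher in iHepSCs, and in pHep 2 were higher and 1 lower, with differences from -0.56 to 2.31. The iHepSC call was lost without any single array but MEF replicate 1 (adjusted p 0.0697 to 0.184), and the pHep call without MEF replicate 3 or 4 or either iHepSC array (adjusted p 0.0542 to 0.0577). Nr5a2, which binds the same core and raises Pou5f1, read 5.54 to 5.86 on MEF, 5.71 and 5.44 on the iHepSC arrays and 6.82 on pHep. Its differences were -0.12 in iHepSCs (adjusted p = 0.573) and 1.13 in pHep (adjusted p = 0.00559). Of its 4 probe sets, none passed in iHepSCs (-0.12 to 0.39), and 3 were higher in pHep, with differences over the 4 from 0.20 to 6.14.

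Cdx2, an intestinal and trophoblast factor that opposes Pou5f1, read 6.37 to 6.64 on MEF, 8.97 and 9.02 on the iHepSC arrays and 6.13 on pHep. It rose by 2.50 in iHepSCs (adjusted p = 2.42e-05) and was higher there than in pHep by 2.87 (adjusted p = 0.000115). In pHep it differed from MEF by -0.37, and by -0.40 without MEF replicate 1. Rarg, a retinoic acid receptor, fell by 0.93 in iHepSCs (adjusted p = 0.00182), not past the test with Gapdh centring, and fell by 1.39 in pHep (adjusted p = 0.0013). Nr2f1 and Nr2f2, which bind the same stretch of the Pou5f1 promoter, are given above.

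The 5 genes whose profile over the 7 arrays was closest to that of Hnf4a 1427001_s_at were Marveld2, Cfb, Onecut2, Cyp2c68 and Reep6. After each profile was centred on its own mean, the root mean square difference was 0.31, 0.31, 0.31, 0.33 and 0.35 on the log2 scale. Marveld2, a tight junction protein, differed by 4.78 in iHepSCs and 5.33 in pHep from MEF, and Cfb, complement factor B, by 4.60 and 6.68. Cyp2c68, a cytochrome P450, differed by 4.35 and 5.04, and Reep6, a protein of the endoplasmic reticulum, by 3.79 and 5.97. The 7 points of each profile share the 3 groups, and the genes were picked for likeness, so these values are a description. Pou5f1 ranged by less than 1, and no gene was sought for it.

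**Figure D4:**
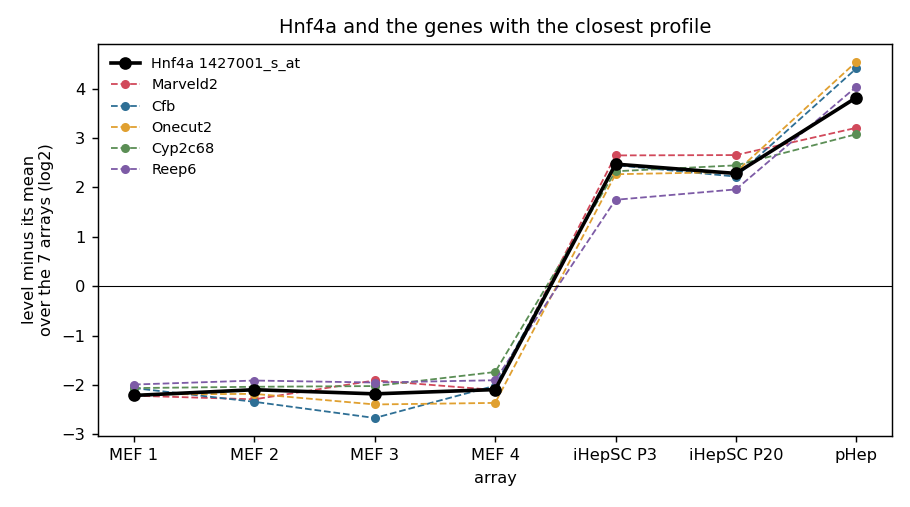
Level minus its mean over the 7 arrays on the log2 scale (vertical) for Hnf4a 1427001_s_at and the 5 genes closest to it, on each array (horizontal), with lines joining the arrays of 1 gene. All 6 profiles are lowest on the 4 MEF arrays and highest on pHep, with both iHepSC arrays between.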

How the data were processed

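RNA of 4 MEF, 2 iHepSC and 1 pHep samples was hybridised to Affymetrix Mouse430_2 arrays. The authors deposited log2 values of 45101 probe sets made by RMA (background correction, quantile normalization and summary per probe set), with array medians of 6.28 to 6.33. The RMA software version is not given in the sources used here. No read counts stand behind array values, and 7 arrays set the precision.

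Here 64 control probe sets were left out, and a linear model was fitted with R 4.3.3 and its package limma 3.58.1 (lmFit, then eBayes, 1 mean per group, 4 residual degrees of freedom, two-sided, Benjamini-Hochberg adjustment, threshold 0.05). It was run over 45037 probe sets, over 18193 genes each read by the probe set with the highest mean, and over 16752 pairs of probe sets of 1 gene. Symbols came from the annotation table of the array, in which 34945 probe sets had 1 symbol, 932 several and 9160 none. The fit was tested on simulated data. Each of 5 runs changed 200 probe sets, genes or pairs and drew independent noise. Far more probe sets passed in the real data, so the recovery rates here are those of the simulation and not of the tests reported. For probe sets, a log2 change of 1 was recovered in 31.7% of cases for iHepSCs against MEF and 8.24% for pHep against MEF. A log2 change of 4 was recovered in 92.1% and 85.1%. A difference not past the test can therefore be a real one that was missed. Tables and figures were made with Python, numpy, pandas and matplotlib.

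The members and gene lists were chosen with earlier results of these data known. Beside the members, genes were named by rule: Hnf4g, Nr5a2, Nr6a1, Sox2 and Nanog, the 2 genes of each list that rose most and the 2 that fell most among those past the test, where there were as many, for iHepSC and for pHep against MEF, and the 5 closest profiles. Others are said to be named after their values were seen. The alternatives were quantile normalization again, centring on the array median or on Gapdh (the mean of 3 control probe sets), a filter of 6 on at least 1 array, trend and robust fits, leaving out each replicate, MEF replicates 2 to 4 averaged as 1 sample, the replicate block, the unpaired t-test of the methods, the mean of all probe sets, leaving out _x_at and _s_at probe sets, and vomeronasal in place of olfactory receptors.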

Additional observations from a re-analysis of the deposited data

Results flagged for a closer look

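By the gap rule of Dixon, set at its 95% level, the values put 1 MEF array far from the other 3 in 6 of 33 results examined, where chance gives about 1 in 20. The Hnf4a probe set 1421983_s_at read 5.14 on MEF replicate 1 and 5.93 to 6.00 on the others, and Pou5f1 1417945_at read 5.26 on MEF replicate 2 and 4.99 to 5.01 on the others. Nr2f1 and Sox2 were high on MEF replicate 1, at 9.62 against 8.59 to 8.72 and 8.14 against 5.30 to 5.70. Pou5f2 read 7.63 on MEF replicate 4 against 7.32 to 7.37, and Cyp2c68 6.17 there against 5.85 to 5.89. In all, 3 of the 6 were on replicate 1, the array that stood apart from the other MEF arrays.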

How the results depend on the processing

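The rises of Hnf4a 1427001_s_at and 1427000_at in iHepSCs and pHep over MEF passed under every alternative run (adjusted p at most 0.0252 and 0.0226 in iHepSCs and 0.0436 for both in pHep), and 1450447_at in iHepSCs and Pou5f1 in all 3 comparisons did not pass under any. A filter of 6 left no value for Pou5f1. The mean of all 4 Hnf4a probe sets gave 3.43 in iHepSCs and 4.78 in pHep. Leaving out MEF replicate 1 raised the calls over all probe sets in iHepSCs against MEF from 10228 to 21450, averaging MEF replicates 2 to 4 lowered them to 3900, and Gapdh centring, which moved the median difference of all probe sets to 0.49, turned the higher share from 5834 of 10228 to 9688 of 11735. In the paired fit with the replicate block, calls fell to 1465 in iHepSCs against MEF and 0 in iHepSCs against pHep. The numbers are shared by only 2 samples of each group, whose deviations correlated at -0.22 and -0.19, so they share a number and no more. With the block, 1421983_s_at read 2.39 in iHepSCs and 4.29 in pHep against MEF, its gap to 1427001_s_at 2.14 and 1.66, the pHep gaps of 1450447_at and 1427000_at 5.15 and -2.72, 1450447_at 0.80 in pHep, and iHepSCs against pHep -1.42, -1.62 and -1.90 in 1427001_s_at, 1427000_at and 1421983_s_at, none of these past the test. Pou5f1 then read -0.013, 0.023 and -0.036 in the 3 comparisons. The block counts, higher and lower, were 7 and 0 partners, 2 and 0 circuit genes, 1 lower POU gene and 1 and 0 Pou5f1 regulators in iHepSCs, and 9 higher partners, 1 lower circuit gene, 0 and 0 POU genes and 0 and 1 regulators in pHep. With MEF replicates 2 to 4 as 1 sample, 1450447_at in pHep was 0.77, the pHep gap of 1421983_s_at 1.86, iHepSCs against pHep in 1421983_s_at -1.72, all not past the test, and Pou5f1 in pHep 0.0083. Lower partners were then 1, lower circuit genes 0 in iHepSCs and 2 in pHep, POU genes 1 lower in iHepSCs and 0 higher and 1 lower in pHep, and regulators 1 higher and 2 lower in iHepSCs and 1 higher in pHep. With Gapdh centring, 1450447_at in pHep was 0.76, 1427001_s_at in iHepSCs against pHep -0.98, Pou5f1 0.55 in iHepSCs and 0.020 in pHep, 0.53 between them, 1450447_at 0.62 in iHepSCs, and P20 minus P3 0.11, 0.26, 0.18 and 0.33 in 1427001_s_at, 1427000_at, 1421983_s_at and 1450447_at and 0.46 in Pou5f1. Lower genes in iHepSCs were then 1 partner, 0 circuit genes, 0 POU genes and 1 regulator, with 3 POU genes higher, and in pHep 1 lower circuit gene, 1 higher and 0 lower POU genes and 1 higher regulator. Higher POU genes in iHepSCs were 1 with the array median, quantile normalization again, trend or the t-test of the methods, and 2 with the mean of all probe sets, and the t-test gave 1 lower partner and 1 higher regulator. Quantile normalization again gave 0.050 for Pou5f1 in pHep. Leaving out 1 replicate at a time gave, for Pou5f1, -0.024 to 0.14 in iHepSCs, -0.036 to 0.054 in pHep and -0.013 to 0.15 between them, and, in iHepSCs against pHep, -1.78 to -1.66 for 1421983_s_at and -0.61 to -0.59 for 1450447_at. It gave 1 to 2 lower partners, 1 to 6 lower circuit genes, 0 to 2 higher and 1 to 2 lower POU genes and 1 to 4 higher and 2 to 5 lower regulators in iHepSCs, and 1 to 2 lower partners, 1 to 2 higher and 4 to 10 lower circuit genes, 1 to 2 higher and 1 to 3 lower POU genes and 1 to 4 higher and 3 to 5 lower regulators in pHep. Small differences changed sign: Nr5a2 in iHepSCs (0.37 with Gapdh centring, 0.19 with the mean of all probe sets, 0.35 without _x_at and _s_at probe sets, -0.26 to 0.020 without 1 replicate), Pou2f3 and Pou3f4 in iHepSCs with Gapdh centring (0.41 and 0.092), Pou5f2 in iHepSCs (-0.028 to 0.37 without 1 replicate) and Nr2f2 in pHep (-0.12 with quantile normalization again, -0.019 with the array median, -0.095 with MEF replicates 2 to 4 as 1 sample, -0.15 with the block, -0.33 with the mean of all probe sets, -0.048 to 0.10 without 1 replicate). Beside the calls named in the report, Gapdh centring ended the pHep calls of Nanog, Trim71, Nr6a1, Pou2f3 and Pou6f1, and MEF replicates 2 to 4 as 1 sample ended those of Nanog, Trim71, Nr6a1 (iHepSCs and pHep), Klf2, Nr2f2 and Pou3f4 (iHepSCs) and Pou2f3, Pou5f2 and Pou6f1 (pHep). The cause of these changes was not tested. The signal over background is not known for single probe sets, which limits what low levels such as those of Pou5f1 can show.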
